A study of Rattus norvegicus with 8 samples.

Results

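The genes described here encode the ligands, receptors, latent binding protein, signal transducers and readouts of transforming growth factor beta (TGF-beta) signalling in rat kidney. They are Tgfb1, Tgfb2, Tgfb3, Inhba, Ltbp1, Tgfbr1, Tgfbr2, Smad3, Smad7 and Tgfbi. They were taken by matching the RefSeq accession of each non-control array probe to a named rat gene. Of the 10 genes, 9 had a probe, with 11 probes in all, out of 15637 genes named on the array. No probe was matched to Smad3, which is not analysed here. All 9 genes were tested, among 12411 genes in the whole comparison.

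Kidney RNA was measured in male rats labelled as 10 weeks of age. The compared groups were rats given colistin at 30 mg/kg (4 samples) and rats given saline (4 samples), both sampled at day 28. Colistin belongs to the polymyxin antibiotics, which are known to harm renal tubules, and the design sets kidneys of treated rats against those of saline controls. Total RNA was made into SPIA cDNA, an amplified product, and labelled with Cy3 for a 1-colour Agilent array. The labels name no strain, genotype or dosing schedule. They number the samples of a group and do not say whether each is its own animal. The p-values therefore rest on sample-to-sample spread, which may be partly technical. For each gene the test draws this spread toward that of all genes.

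TGF-beta ligands are secreted in a latent form, bound to their own propeptide and to a latent TGF-beta binding protein that tethers the complex to the matrix. Once freed, a ligand joins the type II receptor to the type I receptor, which phosphorylates Smad2 and Smad3. These enter the nucleus with Smad4 and switch on target genes, among them inhibitors such as Smad7 that damp the signal. In the kidney the pathway is best known for driving interstitial matrix deposition, and much of its control lies in the release of stored ligand rather than in transcript level.

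Array-wide properties bear on every value below. Levels are log2 of the scanner's processed signal, from which the 75th percentile of the same array was subtracted, so 0 stands for that percentile and levels of different probes are not set against each other. The 75th percentile of the processed signal was 271 to 317 on colistin arrays and 156 to 197 on saline arrays. Spots well above background made up 79.1% to 83.9% on colistin arrays and 69.3% to 75.8% on saline arrays. The mean correlation of an array with the others of its group was 0.873 to 0.896 for colistin and 0.777 to 0.826 for saline. All 6 proximal tubule markers examined were well above background on all 8 arrays, which matches the kidney label. The number of arrays limits the precision.

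None of the 9 TGF-beta genes passed the test in either direction (limma with Benjamini-Hochberg adjustment over all genes, threshold 0.05), and 0 had an unadjusted p under 0.05. Of all genes tested, 2.00% passed, 1.46% as higher and 0.540% as lower in colistin kidneys, and 22.7% had an unadjusted p under 0.05. The fold change was positive for 4 of the genes (Tgfb1, Tgfbr1, Tgfbr2 and Tgfbi) and negative for 5 (Tgfb2, Tgfb3, Inhba, Ltbp1 and Smad7), though Tgfb1 and Tgfbi turned negative with normexp background correction and Tgfb2 positive with the mean of its probes. Their median log2 fold change, colistin over saline, was -0.41, beside -0.14 for all genes. Adjusted p-values ran between 0.307 for Tgfb3 and 0.706 for Tgfb1. The intervals are wide, so these results do not show that the genes were equal in the groups.

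**Figure D1:**
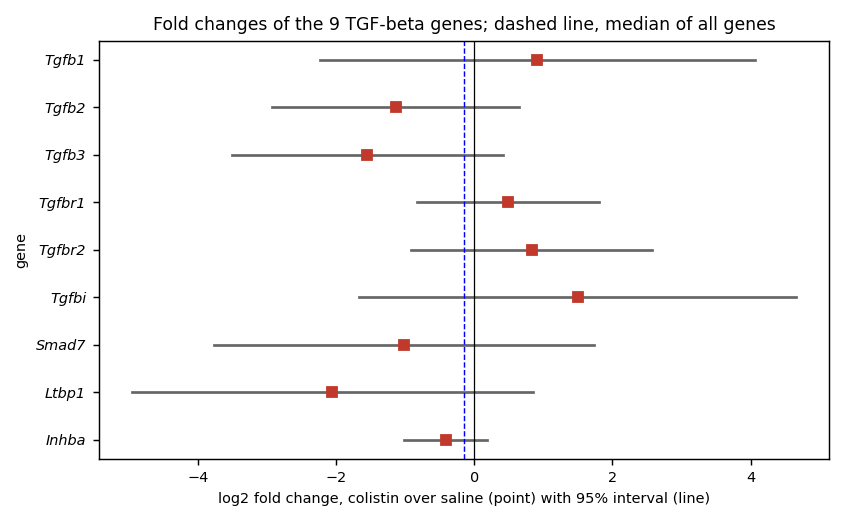
Log2 fold change (colistin over saline, horizontal axis) of the 9 measured TGF-beta genes, with points for the estimate, lines for the 95% interval and a dashed line at the median of all genes (-0.14). Every interval includes 0. That of Inhba is the narrowest, between -1.01 and 0.18, and that of Tgfbi is the widest, between -1.66 and 4.66.

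Among the ligands, Tgfb1 encodes the isoform most studied in kidney disease. Its levels on colistin arrays 1 to 4 were -1.44, -4.24, -4.51 and -1.84, and on saline arrays 1 to 4 they were -0.27, -6.14, -3.45 and -5.81. The saline values reached both above and below the colistin values, so the groups overlapped. Tgfb1 averaged -3.01 ± 1.59 in colistin kidneys and -3.92 ± 2.71 in saline kidneys (SD, n = 4 each). The log2 fold change was 0.91 ± 1.37 (SE), with a 95% interval between -2.24 and 4.06 (limma adjusted p = 0.706). It was 2.13 (adjusted p = 0.302) without saline array 1 and 0.17 (adjusted p = 0.948) without saline array 2.

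Tgfb1 was the one gene of the group whose probe was printed in 10 copies on each array, which measures the error within an array. All 10 copies were well above background on each of the 4 colistin arrays. On saline arrays 1 and 3 all 10 copies were, and on saline arrays 2 and 4 none was. Where they were above background, the copies agreed closely, with an SD of the log2 signal of 0.092, 0.218, 0.22 and 0.12 on colistin arrays 1 to 4, and of 0.0702 and 0.166 on saline arrays 1 and 3. The processed signal of the copies lay between 99.4 and 124.5 on colistin array 1 and between 8.98 and 13.8 on colistin array 3. It lay between 122 and 140 on saline array 1 and between 1.01 and 5.3 on saline array 2. On saline arrays 2 and 4, where no copy was well above background, the copies agreed less, with SDs of 0.812 and 0.837. Among arrays where the copies were above background, differences in Tgfb1 between arrays of 1 group were thus several times larger than those between copies.

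Tgfb2 encodes a second secreted isoform. By its brighter probe the levels were -2.21, -1.44, -1.54 and -1.52 on colistin arrays 1 to 4 and -1.49, -1.22, 1.98 and -1.44 on saline arrays 1 to 4. Saline array 3 stood far above the other 7 arrays, which lay close together. This gave a log2 fold change of -1.14 ± 0.78 (limma adjusted p = 0.398), and with 1 array left out it ran between -1.45 (without saline array 1) and -0.29 (without saline array 3). The dimmer Tgfb2 probe gave an estimate of the opposite sign, 1.70 ± 1.55 (adjusted p = 0.508 in a fit over all kept probes). Its levels were -4.16, -6.29, -1.97 and -0.9992 on colistin arrays 1 to 4 and -4.87, -1.40, -6.80 and -7.17 on saline arrays 1 to 4. It was well above background on 3 of 4 colistin arrays and 2 of 4 saline arrays, and saline array 3, the highest by the other probe, was one of those below.

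Tgfb3, the remaining isoform gene, was dim. Colistin arrays 1 to 4 gave levels of -4.97, -4.20, -6.27 and -4.08, and saline arrays 1 to 4 gave -3.21, -4.20, -4.81 and -1.10. Its probe was well above background on 3 of 4 arrays of each group. The groups overlapped, with colistin array 3 the lowest and saline array 4 the highest of all 8. Colistin differed from saline by a log2 fold change of -1.55 ± 0.85 (limma adjusted p = 0.307), the lowest adjusted p among the 9 genes, and with 1 array left out it ran between -2.04 (without saline array 3) and -0.80 (without saline array 4).

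Inhba encodes the beta A subunit of activin A, a ligand that also signals through Smad2 and Smad3. Its levels were -0.74, -1.03, -0.80 and -0.9953 on colistin arrays 1 to 4, against -0.42, -0.35, -0.68 and -0.45 on saline arrays 1 to 4. It was the only one of the 9 genes whose groups did not overlap, while 18.6% of all genes tested had groups that did not overlap, 11.7% with colistin lower. Inhba averaged -0.89 ± 0.14 in colistin kidneys and -0.47 ± 0.14 in saline kidneys (SD, n = 4 each), a log2 fold change of -0.41 ± 0.26 (limma adjusted p = 0.357). The SE of 0.26 is larger than either SD because limma draws the variance of each gene toward that of all genes. The SE and adjusted p of Inhba thus do not reflect its own scatter alone. The negative direction holds relative to each array's 75th percentile. Before that scaling the processed signal was 183, 151, 156 and 159 on colistin arrays 1 to 4 and 117, 151, 123 and 114 on saline arrays 1 to 4, so the unscaled values lean the other way.

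**Figure D2:**
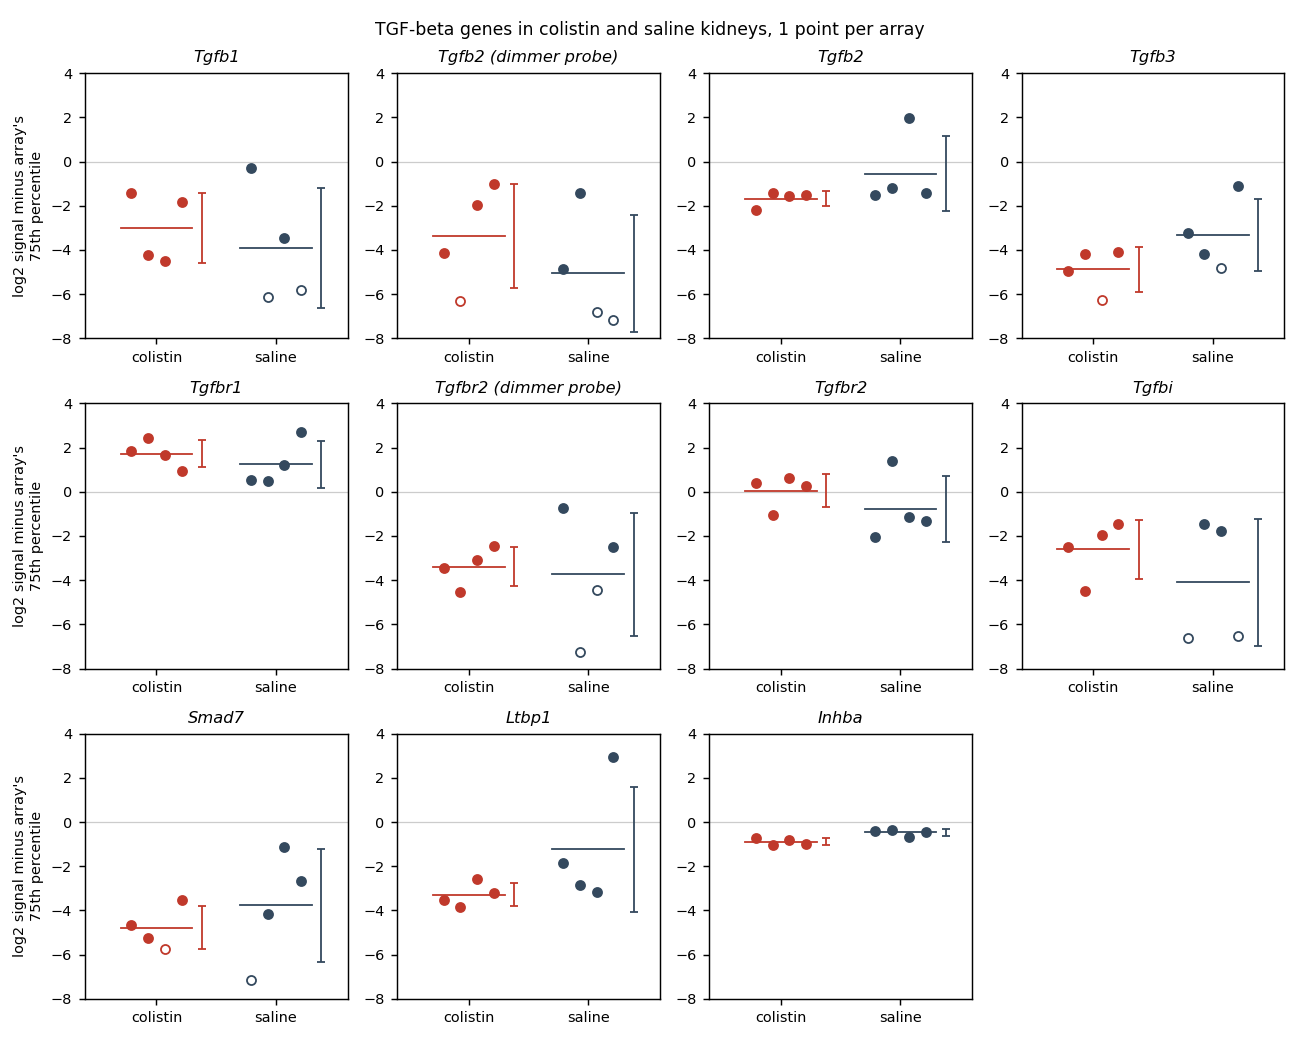
Level of each probe of the 9 TGF-beta genes (vertical axis, log2 signal minus the array's 75th percentile) on the 4 colistin and 4 saline arrays. Each point is 1 array, open where the probe was not well above background, with the group mean as a line and its SD as a bar beside it. Tgfb1 reaches -0.27 on saline array 1 and is open at -6.14 and -5.81 on saline arrays 2 and 4, while the Inhba points of each group lie close together.

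Ltbp1 encodes the latent TGF-beta binding protein that anchors latent ligand in the matrix. Levels were -3.52, -3.84, -2.59 and -3.20 on colistin arrays 1 to 4, and -1.84, -2.84, -3.19 and 2.94 on saline arrays 1 to 4. Saline array 4 stood far above the other 7 arrays, and the other saline values overlapped the colistin values. Ltbp1 had the largest estimate of the 9 genes, with a log2 fold change of -2.05 ± 1.26 (limma adjusted p = 0.348). With 1 array left out it ran between -2.70 (adjusted p = 0.261, without saline array 3) and -0.66 (adjusted p = 0.411, without saline array 4).

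Tgfbr1 encodes the type I receptor kinase, and its probe was well above background on all 8 arrays. Its levels were 1.83, 2.43, 1.68 and 0.95 on colistin arrays 1 to 4, and 0.52, 0.49, 1.22 and 2.72 on saline arrays 1 to 4. The highest and the 2 lowest of the 8 values were saline values, so the groups overlapped. Tgfbr1 had a log2 fold change of 0.49 ± 0.57 (limma adjusted p = 0.628), and with 1 array left out it ran between 0.24 (adjusted p = 0.835, without saline array 2) and 0.98 (adjusted p = 0.233, without saline array 4).

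Tgfbr2 encodes the type II receptor, which binds the ligand first. By its brighter probe, well above background on all 8 arrays, levels were 0.40, -1.06, 0.62 and 0.25 on colistin arrays 1 to 4 and -2.04, 1.40, -1.14 and -1.33 on saline arrays 1 to 4. Saline array 2 was the highest of all 8, and the other saline arrays were below every colistin array. By this probe the log2 fold change was 0.83 ± 0.76 (limma adjusted p = 0.525), and with 1 array left out it ran between 0.41 (adjusted p = 0.785, without saline array 1) and 1.55 (adjusted p = 0.164, without saline array 2). The dimmer Tgfbr2 probe gave levels of -3.46, -4.56, -3.08 and -2.44 on colistin arrays and -0.73, -7.23, -4.46 and -2.49 on saline arrays, each in the order 1 to 4. On saline arrays that probe exceeded background well in 2 of 4. By it saline array 2 was the lowest and saline array 1 the highest of the 4, the reverse of the brighter probe, and the log2 fold change was 0.35 ± 1.29 (adjusted p = 0.886 in the fit over all kept probes).

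Smad7 encodes the inhibitory Smad that is switched on by the pathway and blocks the type I receptor. Colistin arrays 1 to 4 gave levels of -4.65, -5.23, -5.75 and -3.51, and saline arrays 1 to 4 gave -7.13, -4.15, -1.15 and -2.65. The probe was well above background on 3 of 4 arrays of each group. Saline arrays held both the lowest and the highest values. Smad7 had a log2 fold change of -1.02 ± 1.20 (limma adjusted p = 0.629). Without saline array 1, the lowest, it was -2.14 (adjusted p = 0.232), and without saline array 3, the highest, it was -0.14 (adjusted p = 0.947). With normexp background correction Smad7 was called lower (log2 fold change -0.87, adjusted p = 0.0437), in a setting that called 27.2% of all genes, with 21.7% of all genes lower in colistin kidneys.

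Tgfbi, a secreted matrix protein gene named for its induction by TGF-beta, stands here for the target genes. Its levels on colistin arrays 1 to 4 were -2.48, -4.49, -1.94 and -1.46, and on saline arrays 1 to 4 they were -6.64, -1.45, -1.77 and -6.50. On all 4 colistin arrays the probe was well above background. Among saline arrays 2 and 3 matched the upper colistin values, and 1 and 4 were not well above background. Tgfbi had a log2 fold change of 1.50 ± 1.38 (limma adjusted p = 0.526), and with 1 array left out it ran between 0.65 (without saline array 1) and 2.38 (without saline array 2). It was -0.98 (adjusted p = 0.569) without saline arrays 1 and 4 together.

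For every one of the 9 genes except Inhba, the SD over the saline arrays was above the median of all genes. All 9 had a larger SD on the saline arrays than on the colistin arrays, as had 67.2% of all genes tested. For Inhba the SDs were nearly the same (0.1435 in colistin kidneys and 0.1443 in saline kidneys). The median SD of the 9 genes was 0.75 on colistin arrays and 1.69 on saline arrays, beside medians over all genes of 0.59 on colistin arrays and 0.84 on saline arrays. Tgfb1, Tgfb3, Tgfbi and Smad7 were not well above background on 1 or 2 saline arrays, where their low values are only bounds, so their saline SD depends on values at background. Among genes above background on all saline arrays, the highest and lowest saline array differed 69.7-fold for Ltbp1, 11.1-fold for Tgfb2, 10.8-fold for Tgfbr2, 4.69-fold for Tgfbr1 and 1.26-fold for Inhba. No single saline array set these ranges. Saline array 1 was the highest of its group for 1 gene, array 2 for 3, array 3 for 2 and array 4 for 3. These are descriptions of the arrays, and the difference in spread was not tested.

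**Figure D3:**
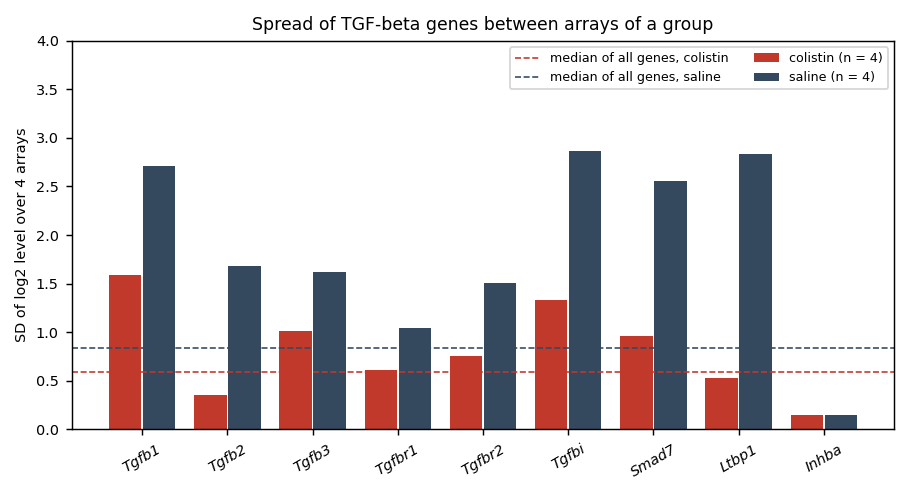
SD of the log2 level over 4 arrays (vertical axis) for each TGF-beta gene, with a bar for colistin left of one for saline, and dashed lines at the median SD of all genes in each group (0.59 for colistin, 0.84 for saline). The saline bar is above the colistin bar for every gene, barely so for Inhba.

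The arrays lay on 3 slides, each holding both groups. Slide 1 held colistin array 2 with saline arrays 1 and 4, slide 2 held colistin array 3 with saline array 2, and slide 3 held colistin arrays 1 and 4 with saline array 3. Within slides, 3 of the 9 genes (Tgfbr1, Smad7 and Inhba) kept the sign of the whole comparison on all 3 slides, and 6 did not. For Inhba the differences, colistin minus saline, were -0.59, -0.45 and -0.18 on slides 1 to 3. Those for Tgfbr1 were 0.82, 1.19 and 0.18, and those for Smad7 were -0.34, -1.60 and -2.93. Tgfb1 gave -1.20, 1.63 and 1.81 on the same slides, and Ltbp1 gave -4.39, 0.25 and -0.17. With slide as a block 0 of the 9 genes passed.

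The genes tested whose profiles over the 8 arrays were nearest to that of Tgfb1, by the root mean square difference of levels centred on each gene's mean, were Trip6 (0.686), B3galnt2 (0.756) and Luzp1 (0.799). The median over all genes was 2.14. Each was high on colistin array 1 and saline array 1 and lowest on saline array 2, and none of the 3 passed the test. Tgfb1 was not well above background on saline arrays 2 and 4, so the match rests in part on its values at background. On those 2 arrays Trip6 was at -4.59 and -3.43, B3galnt2 at -7.25 and -6.91, and Luzp1 at -7.1 and -6.8.

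A wider set of pathway genes was then read in the same comparison. It held 87 genes in lists of ligands and their soluble binders, latent complex and activation, receptors and coreceptors, Smads and signal modifiers, and target genes, and it includes the 10 genes above. Of 74 genes tested 2 rose (Tgif1 and Gdf15) and 2 fell (Pmepa1 and Col1a2), which is 5.41% beside 2.00% of all genes. The median log2 fold change was -0.41, beside -0.14 for all genes. With slide as a block 0 of the 74 passed, and without colistin array 4 none passed. With normexp 2 rose and 20 fell, in a setting that called 27.2% of all genes, with 21.7% of all genes lower.

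**Figure D4:**
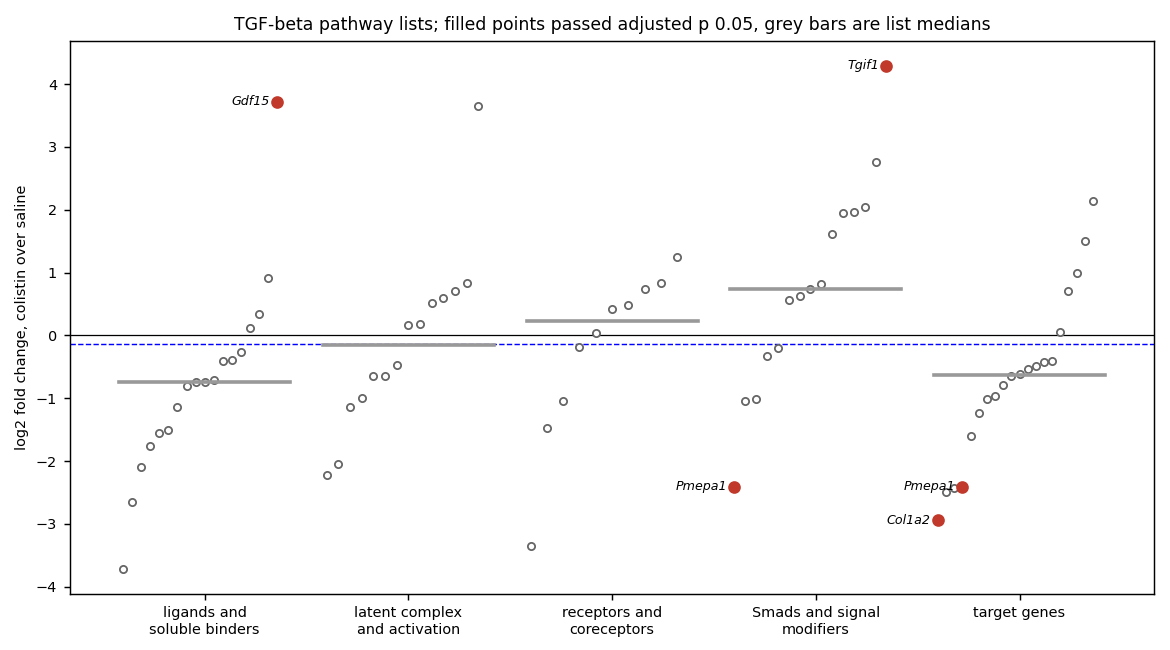
Log2 fold change (colistin over saline, vertical axis) of each tested gene in 5 lists of the TGF-beta pathway, with filled red points for genes that passed the test, grey bars for list medians and a dashed line for the median of all genes (-0.14). Gdf15 and Tgif1 lie at the top, at 3.71 and 4.29, and Pmepa1, which is in 2 lists, and Col1a2 lie at -2.41 and -2.94.

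Among Smads and signal modifiers, 1 of 15 genes tested rose, 1 fell and 13 did not pass (list median 0.74). Tgif1, a homeobox corepressor that restrains Smad2 and Smad3 at target genes, rose. It had levels of 2.82, 2.33, 1.97 and 2.47 on colistin arrays 1 to 4 and of -3.85, -2.31, -0.55 and -0.86 on saline arrays 1 to 4. The 4 colistin values lay together, well above the scattered saline values. Tgif1 averaged 2.40 ± 0.35 in colistin kidneys and -1.89 ± 1.51 in saline kidneys (SD, n = 4 each), a log2 fold change of 4.29 ± 0.71 (limma adjusted p = 0.0254). The call was lost without colistin array 1, 2, 3 or 4 or saline array 2 (adjusted p 0.0604 to 0.0797), and also under the slide block (adjusted p = 0.0999), while the estimate stayed between 3.64 and 4.73 with 1 array left out. On slides 1 to 3 the differences were 4.68, 4.28 and 3.20. Smad4, the shared partner Smad gene, named after its value was seen, gave 1.62 ± 0.82 (adjusted p = 0.274).

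Pmepa1 encodes a membrane protein that is switched on by TGF-beta and sequesters Smad2 and Smad3, a feedback role like that of Smad7. It fell. Its levels were -0.68, -0.23, -0.33 and -1.06 on colistin arrays 1 to 4, against 2.24, 1.74, 1.38 and 1.99 on saline arrays 1 to 4. The groups were separated by more than their own width. Pmepa1 averaged -0.57 ± 0.38 in colistin kidneys and 1.84 ± 0.37 in saline kidneys (SD, n = 4 each), a log2 fold change of -2.41 ± 0.33 (limma adjusted p = 0.0153). On slides 1 to 3 the differences were -2.34, -2.07 and -2.24. The adjusted p was 0.0505 without colistin array 1 or 4, 0.0643 with slide as a block and 0.0658 without saline arrays 1 and 4 together.

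Because Smad7 and Pmepa1 are both feedback genes of the pathway, and Pmepa1 passed the test while Smad7 did not, their promoters are shown for reference. Each runs 5′ to 3′ on the strand of the gene, with 250 bases before the start of the gene and 50 after it, as given by RefSeq for the rat assembly GRCr8. The Smad7 window is chr18:71263258-71263557 on the plus strand and the Pmepa1 window is chr3:182478600-182478899 on the minus strand. Capitals mark the SMAD box CAGAC, searched on both strands.
Smad7: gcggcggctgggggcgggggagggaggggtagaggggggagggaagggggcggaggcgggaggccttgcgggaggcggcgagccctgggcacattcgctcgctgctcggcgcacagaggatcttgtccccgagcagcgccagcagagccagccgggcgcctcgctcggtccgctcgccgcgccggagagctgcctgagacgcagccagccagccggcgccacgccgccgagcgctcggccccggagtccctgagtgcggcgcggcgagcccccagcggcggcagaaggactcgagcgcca
Pmepa1: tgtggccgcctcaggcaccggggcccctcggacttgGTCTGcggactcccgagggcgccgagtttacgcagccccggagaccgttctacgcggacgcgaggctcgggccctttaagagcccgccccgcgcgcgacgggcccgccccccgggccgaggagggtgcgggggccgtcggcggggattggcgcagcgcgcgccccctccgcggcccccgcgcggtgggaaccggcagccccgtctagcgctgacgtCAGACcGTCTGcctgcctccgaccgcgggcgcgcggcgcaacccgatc
The Pmepa1 window holds 3 such boxes and the Smad7 window 0. Of 33469 rat promoters of this length 50.1% hold at least 1, so a match is common. The palindrome GTCTAGAC, a stronger Smad site, was in neither window and in 0.197% of promoters. Among the 10 named TGF-beta genes, all with a promoter in the table, 2 hold a SMAD box (Ltbp1 and Inhba). These are matches of letters and not measured binding, and the expression data do not test them. Sites outside the 300 bases of a window were not searched. A window with 0 boxes therefore does not show that a gene lacks a Smad site.

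Of the 18 ligands and soluble binders tested, 1 rose, 0 fell and 17 did not pass, and the list median was -0.74, with 14 negative fold changes. The gene that rose was Gdf15, a divergent family member that acts through a brainstem receptor rather than the TGF-beta receptors and is a marker of cell stress. It had levels of 2.68, 2.28, 2.23 and 1.38 on colistin arrays 1 to 4 and of -2.66, -0.58, -0.66 and -2.39 on saline arrays 1 to 4. Every colistin value was above every saline value. The log2 fold change was 3.71 ± 0.58 (limma adjusted p = 0.0225). Differences within slides 1 to 3 were 4.80, 2.81 and 2.70. The call was lost without colistin array 1, 2, 3 or 4 (adjusted p up to 0.0701), without saline arrays 1 and 4 together (adjusted p = 0.0523) and with slide as a block (adjusted p = 0.0827). Of 7 tubular injury markers 2 rose (Havcr1 and Spp1), beside 1.46% of all genes, and 5 did not pass. Of those 5, Lcn2, Krt8 and Krt19 had positive fold changes, and Krt18 (-0.53) and Vcam1 (-1.51) negative ones. Levels were also summed without the log, so that brighter probes weigh more. This sum over the 7 markers was 27.6 to 54.2 on colistin arrays and 2.91 to 5.91 on saline arrays. Their part in the Gdf15 result was not tested. Bgn and Dcn, matrix proteoglycan genes whose products bind TGF-beta, were named after their values were seen. They gave -2.09 (adjusted p = 0.0508) and -2.66 (adjusted p = 0.0781).

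**Figure D5:**
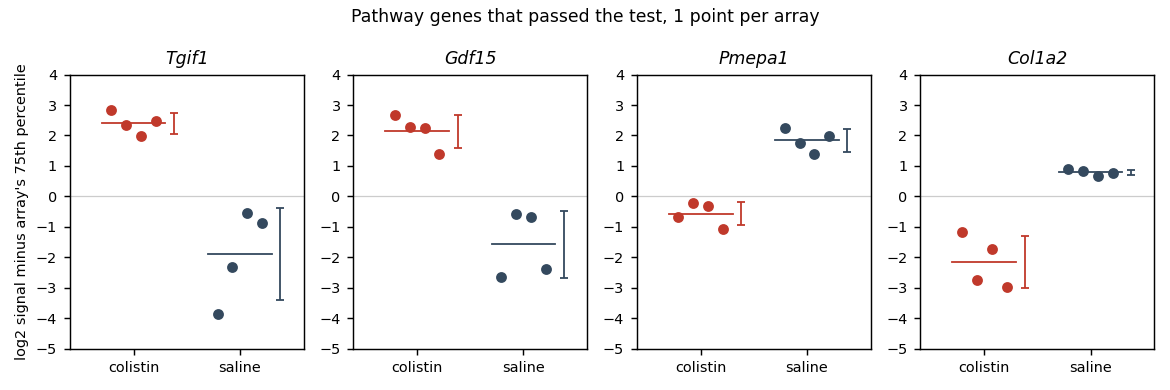
Levels of the 4 wider pathway genes that passed the test (vertical axis, log2 signal minus the array's 75th percentile), 1 point per array, with the mean as a line and the SD as a bar for colistin and saline. For Tgif1 and Gdf15 the colistin points lie above all saline points, and for Pmepa1 and Col1a2 they lie below.

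Of 20 target genes tested, 0 rose, 2 fell (Pmepa1 and Col1a2) and 18 did not pass, with a list median of -0.63. Col1a2 encodes a chain of type I collagen, a classical product of TGF-beta signalling in fibroblasts. Its levels were -1.17, -2.74, -1.73 and -2.97 on colistin arrays 1 to 4 and 0.88, 0.82, 0.68 and 0.78 on saline arrays 1 to 4. The saline values were nearly the same on every array, and all colistin values were lower. The log2 fold change was -2.94 ± 0.44 (limma adjusted p = 0.0198). Without colistin array 2 or 4 the adjusted p was 0.0553 and 0.0523, with slide as a block it was 0.0925, and without saline arrays 1 and 4 together it was 0.0890. Differences within slides 1 to 3 were -3.56, -2.55 and -2.75. Other well known targets, named after their values were seen, did not pass. Col1a1, the gene of the partner chain of type I collagen, gave -0.50 ± 0.60 (adjusted p = 0.636), and Col3a1, the type III collagen gene, gave -2.50 ± 0.50 (adjusted p = 0.0508). Ccn2, the connective tissue growth factor gene, gave -0.61 (adjusted p = 0.796), and Fn1, the fibronectin gene, gave -1.24 (adjusted p = 0.516). The myofibroblast actin gene Acta2 gave -0.78 ± 0.49 (adjusted p = 0.354, and -0.42 without saline array 4) and the metalloproteinase inhibitor gene Timp1 gave 2.14 ± 0.55 (adjusted p = 0.0929).

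Markers of matrix-producing cells were read beside the collagen and proteoglycan values. Of 6 fibroblast and pericyte markers 5 were tested, Lum being too dim, and all 5 had a negative fold change, with 0 past the threshold. Their summed unlogged level, relative to each array's 75th percentile, was 6.37 to 16.6 on colistin arrays and 21.6 to 38.7 on saline arrays. Pdgfrb, the pericyte receptor gene, gave -3.07 ± 0.93 (limma adjusted p = 0.13). With 1 array left out it ran between -3.96 (adjusted p = 0.0481, without colistin array 1) and -2.36 (adjusted p = 0.227, without colistin array 2), and among these omissions it passed the threshold only without colistin array 1. With normexp it was -1.97 (adjusted p = 0.0353). The list shares Col1a1, Col3a1 and Dcn with the pathway lists. In whole kidney RNA, fewer cells of a type and less RNA per cell cannot be told apart, and the part of these cells in the Col1a2 result was not tested.

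Among 10 receptors and coreceptors 0 rose and 0 fell, with a list median of 0.23. Eng, which encodes the endothelial coreceptor endoglin, had the lowest p. Its levels were -4.64, -2.40, 0.59 and -1.22 on colistin arrays 1 to 4 and 2.43, 2.53, 2.20 and -1.46 on saline arrays 1 to 4, so that the groups overlapped through saline array 4. Eng had a log2 fold change of -3.34 ± 1.28 (limma adjusted p = 0.184), and with 1 array left out it ran between -4.31 (without saline array 4) and -2.44 (without colistin array 1). Tgfbr3, which encodes the coreceptor betaglycan, gave -1.48 ± 1.02 (adjusted p = 0.404), and with 1 array left out between -2.12 (without colistin array 4) and -0.78 (without colistin array 2). Of 6 endothelial markers 4 fell, beside 0.540% of all genes, Pecam1 among them (-3.38 ± 0.41, adjusted p = 0.0101). Cdh5 (-0.30, adjusted p = 0.719) and Tek (-2.43, adjusted p = 0.268) did not pass. The summed unlogged level of the 6 markers was 4.79 to 7.19 on colistin arrays and 33.1 to 52.5 on saline arrays. Its part in the Eng value was not tested.

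Of 14 genes of the latent complex and its activation 0 rose and 0 fell, with a list median of -0.16. The lowest p belonged to Ltbp2, which encodes a binding protein of the same family as Ltbp1 that does not itself bind latent TGF-beta. By its brighter probe levels were -2.31, -5.67, -1.94 and -1.33 on colistin arrays 1 to 4. The same probe gave -5.94, -7.18, -6.78 and -5.98 on saline arrays 1 to 4 and was not well above background on any of them. The log2 fold change was 3.66 ± 0.91 (limma adjusted p = 0.0881). Saline levels were also raised, where lower, to the lowest level of any probe well above background on that array. The mean difference was then 9.55-fold. This is not a strict lower bound, because other probes not well above background had higher levels. The dimmer Tgfbr2 probe, for example, was at -4.46 on saline array 3. With 1 array left out the adjusted p was 0.0116 without colistin array 2 and 0.113 to 0.202 for the other 7 arrays. With normexp the log2 fold change of Ltbp2 was 0.36 (adjusted p = 0.417), against 3.66 without it. The dimmer Ltbp2 probe, well above background on 3 of 4 saline arrays, gave -0.66 ± 0.40 (adjusted p = 0.328 in the fit over all kept probes), so the probes disagree in sign. Itgb1, the gene of the integrin beta 1 chain shared by several latent TGF-beta activating integrins, gave 0.83 ± 0.38 (limma adjusted p = 0.24), and 1.68 (adjusted p = 0.148) as the mean of its probes.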

How the data were processed

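Spot intensities were deposited by the authors as 1 scanner table per array. Per the submitters' processing notes they came from Agilent Feature Extraction 10.5, whose processed signal was used as deposited. Statistics of a background subtraction and a spatial detrending within the array stand in its output, per the file headers. Flags (well above background, outlier) were the software's own, per the file headers. Non-uniform and outlier spots (257 to 461 per array) were left out, no spot was saturated, copies of a probe were averaged, and levels were log2 of the signal minus the array's 75th percentile, with no pseudocount. Probes were kept where colistin or saline had 3 or more of its 4 arrays well above background (23718 of 30367). Accessions were matched to GRCr8 gene symbols, for names alone (18643 probes). The probe with the highest mean log2 level stood for a gene, which gave 12411 genes.

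Colistin was set against saline with lmFit and eBayes in limma 3.58.1 (R 4.3.3), two-sided, adjusted by Benjamini-Hochberg over all genes with a threshold of 0.05, after the script was tested on simulated data. The normexp alternative used the median spot signal with an offset of 50. The deposited log2 table of the series, whose scale and centring no label states, was an alternative. Differences between its columns, regressed on log2 differences of the scanner signal, had slopes of 0.9971 to 1.0007 and correlations of at least 0.99977, so its scale was log2 and its direction that of the signal, and the median of every probe over the 8 arrays was 0 within 0.001. Its column medians were -0.113, -0.23, -0.0893 and -0.0327 for colistin arrays 1 to 4 and 0.233, 0.0232, 0.0865 and 0.196 for saline arrays 1 to 4. The genes, lists and tests were chosen with earlier results of these data known. By rule the named genes were all 10 TGF-beta genes, every wider pathway gene that passed, the 2 lowest p-values of lists where none passed, 4 marker genes (Pdgfrb, Acta2, Pecam1 and Havcr1), and the 3 nearest profiles to Tgfb1. Smad2, Smad4, Bgn, Dcn, Col1a1, Col3a1, Ccn2, Fn1 and Timp1 were named outside this rule, after their values were seen. Havcr1, the tubular injury marker, rose by 4.48 ± 0.48 (adjusted p = 0.0063).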

Additional observations from a re-analysis of the deposited data

Results flagged for a closer look

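Of 50 sets of 4 values examined (each probe of a named gene in each group), 3 held an array far from the others of its group, and chance alone marks about 1 in 20 such sets. The brighter Tgfb2 probe was marked in both groups. Colistin array 1 was the lowest at -2.205, with the next array at -1.54, and saline array 3 was the highest at 1.981, with the next at -1.22. For the coreceptor gene Eng, saline array 4 was the lowest of its group at -1.457, with the next at 2.20.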

How the results depend on the processing

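Over 19 alternatives, 162 of 167 fold changes of the 9 TGF-beta genes kept their sign. Many of these could not change it. Dropping the filter, requiring detection on all 8 arrays and the replicate block left the estimate of every one of these genes tested there as it was. The mean of all kept probes did the same for genes with 1 probe. The count is therefore not a measure of how robust the signs are. With normexp background correction Tgfb1 turned to -0.28 and Tgfbi to -0.20, with the mean of all kept probes Tgfb2 turned to 0.28, and without saline arrays 1 and 4 together Tgfbr2 turned to -0.076 and Tgfbi to -0.98. The cause was not tested. The count of these genes past the threshold was 0 in every alternative except normexp, where it was 1 (Smad7). Among all genes 248 passed, 73.0% of them higher. The count was 3379 with normexp (20.4% higher), 40 with slide as a block, 143 without saline arrays 1 and 4 together, and 78 to 255 with 1 array left out. With the filter set to detection on all 8 arrays 203 genes passed (59.6% higher), and 5 of the 9 genes could be tested there. With normexp the median over all genes moved to -0.34 on the log2 scale, against -0.14. With the replicate block 5 genes passed, none among the 74 pathway genes. Same-numbered arrays deviated from their group means with correlations between -0.0205 and 0.0134, so no pairing by the labels' numbers was seen. With 4 arrays per group such correlations cannot exclude a pairing. Signal over background limits Tgfb1 and Tgfbi, which were above background on 2 of 4 saline arrays, and Tgfb3 and Smad7, which were above it on 3 of 4 arrays of each group.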
